A study of Mus musculus with 10 samples.

Results

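The CXC chemokine receptors Cxcr3, Cxcr4, Cxcr5 and Cxcr6 and the CX3C receptor Cx3cr1 were followed across subsets of regulatory T cells (Tregs) of the mouse spleen. These 5 genes were taken by symbol from the 19938 genes measured, and each was represented by a single probe set. Tregs are CD4+ T cells that carry the transcription factor Foxp3. They were sorted from female C57BL/6 mice of 9 to 14 weeks as CD4+ cells with a red fluorescent protein (RFP) reporter of Foxp3, and no treatment is given in the labels. FR1 cells were CD62Lhi CD69- Klrg1- (n = 2 arrays). FR2 cells were CD62Llo CD69- Klrg1- (n = 2). FR3 Klrg1- cells were CD62Llo CD69+ Klrg1- (n = 4), and FR3 Klrg1+ cells were CD62Llo CD69+ Klrg1+ (n = 1). The labels call the arrays biological replicates and do not say how many mice gave each. The p-values therefore rest on the spread between arrays of the same label. The limma fit moderates the spread of each gene with that of all genes, so SEs, intervals and p-values borrow from other genes. Values are RMA log2 intensities, on which a difference of 1 is a doubling.

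Chemokine receptors are receptors with multiple membrane spans that couple to inhibitory G proteins and steer cells along gradients of their ligands. CXCR3 binds CXCL9, CXCL10 and CXCL11, which interferon-gamma induces, and the transcription factor T-bet drives its gene in Th1 cells and in Tregs that restrain them. CXCR4 binds CXCL12 of stromal cells. CXCR5 binds CXCL13 and leads cells into B cell follicles, and it marks follicular helper and follicular regulatory T cells. CXCR6 binds CXCL16, which exists in a membrane-bound form, and is found on T cells of peripheral tissues. CX3CR1 binds CX3CL1 (fractalkine) and is best known from monocytes, microglia and cytotoxic lymphocytes.

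The arrays fell into sets that did not follow the gates. In the first were all arrays of FR1 and FR2 with replicates 1 and 2 of FR3 Klrg1-. In the second were replicates 3 and 4 of FR3 Klrg1- with the FR3 Klrg1+ array. Arrays of the same set correlated at 0.972 to 0.992 and arrays of different sets at 0.901 to 0.921. Each comparison of gates was therefore made between arrays of the same set, by limma with the array set as a term over the 9 grouped arrays and Benjamini-Hochberg adjustment over all genes at a threshold of 0.05. "Called" means past that threshold. The remaining array was titled FR3 but carried the gate text of FR1, and it was placed in no group and in no comparison. Genes of T cells averaged 11.46 to 11.87 and those of Tregs 10.09 to 10.91 on the grouped arrays, while the lists of B cells, macrophages and monocytes, dendritic cells, NK cells and neutrophils averaged 4.46 to 5.81, and the pair of CD8 T cell genes 6.57 to 7.19. The Klrg1 transcript followed its gate, at 12.33 in FR3 Klrg1+ against 7.27 and 7.47 in FR3 Klrg1- of the same set. Among the Klrg1- gates it was also called higher in FR2 (0.90, adjusted p = 0.014) and in FR3 Klrg1- (1.27, adjusted p = 0.000395) against FR1. The Cd69 transcript did not separate the CD69 gate: it stood at 12.11 and 12.41 in FR1, 11.86 and 12.17 in FR2, and 12.02 and 12.15 in FR3 Klrg1- of the first set. Bulk values do not separate fewer cells with a transcript from less of it per cell.

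Cxcr3 was the receptor that followed CD62L most steeply. It stood at 8.69 and 8.98 in FR1, at 11.45 and 11.41 in FR2, and at 11.30 and 11.46 in FR3 Klrg1- replicates 1 and 2. In the second set it stood at 10.14 and 10.14 in FR3 Klrg1- and at 9.69 in FR3 Klrg1+. The FR1 arrays lay far below the other arrays of their set, FR2 and FR3 Klrg1- overlapped, and the FR3 Klrg1+ array was the lower of the second set.

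Cxcr6 was lowest in FR1 within the first set and highest in FR3 Klrg1+ among the grouped arrays of the second. Its values were 5.14 and 5.75 in FR1, 6.76 and 7.40 in FR2, 6.89 and 7.23 in FR3 Klrg1- replicates 1 and 2, 8.44 and 8.18 in FR3 Klrg1- replicates 3 and 4, and 10.29 in FR3 Klrg1+. FR1 did not overlap with the other groups of the first set, FR2 and FR3 Klrg1- did overlap, and FR3 Klrg1+ stood well above FR3 Klrg1-. With 1 or 2 arrays per group and set, a gene can lack overlap without a difference, and the share over all genes was not computed. The FR1 values lay at percentiles 28.2 and 41.9 of all probe sets on their arrays, and no detection call comes with the values used here. They lie within the range of the lists of other cell types given above (4.46 to 5.81), so a level above background was not shown for Cxcr6 in FR1, and differences from FR1 are given on the log2 scale alone.

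Cxcr5 rose in steps and then dropped in the Klrg1+ cells. It stood at 6.60 and 7.02 in FR1, at 7.37 and 7.48 in FR2, and at 8.90 and 9.03 in FR3 Klrg1- replicates 1 and 2. In the second set it stood at 8.19 and 8.28 in FR3 Klrg1- and at 5.28 in FR3 Klrg1+. No groups of the same set overlapped, which so few arrays can give without a difference. The FR1 values lay at percentiles 57.3 and 62.9 of their arrays, and a level above background was not shown for Cxcr5 in FR1. Its differences from FR1 are therefore also given on the log2 scale alone. The FR3 Klrg1+ value lay at percentile 28.4 of its array, and was lower than any value of Cxcr5 in FR1, though those arrays belong to the other set.

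Cxcr4 was bright on every array, at percentiles 95.9 to 99.5. Its values were 12.07 and 12.55 in FR1, 11.90 and 12.40 in FR2, and 12.80 and 12.96 in FR3 Klrg1- replicates 1 and 2. In the second set they were 10.83 and 10.78 in FR3 Klrg1- and 10.83 in FR3 Klrg1+. FR1 and FR2 overlapped, FR3 Klrg1- lay above both, and the FR3 Klrg1+ array stood beside the FR3 Klrg1- arrays of its set. Replicate 2 was the higher array in each group of the first set, for Cxcr4 as for Cxcr5 and Cxcr6.

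Cx3cr1 was nearly flat, at percentiles 51.2 to 62.2 of the arrays, and a level above background was not shown for it. It stood at 6.54 and 6.41 in FR1, 6.53 and 6.45 in FR2, 6.25 and 6.72 in FR3 Klrg1- replicates 1 and 2, 6.44 and 6.61 in replicates 3 and 4, and 6.97 in FR3 Klrg1+. All groups of the first set overlapped, and the FR3 Klrg1+ array was the highest of the grouped arrays. The span over all 10 arrays was 0.71, against 2.30 for Cxcr4 and 5.29 for Cxcr6. These spans cross both array sets and include the array in no group. With the mean of each set subtracted, the spans over the 9 grouped arrays were 0.52 for Cx3cr1, 1.06 for Cxcr4 and 2.71 for Cxcr6.

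**Figure D1:**
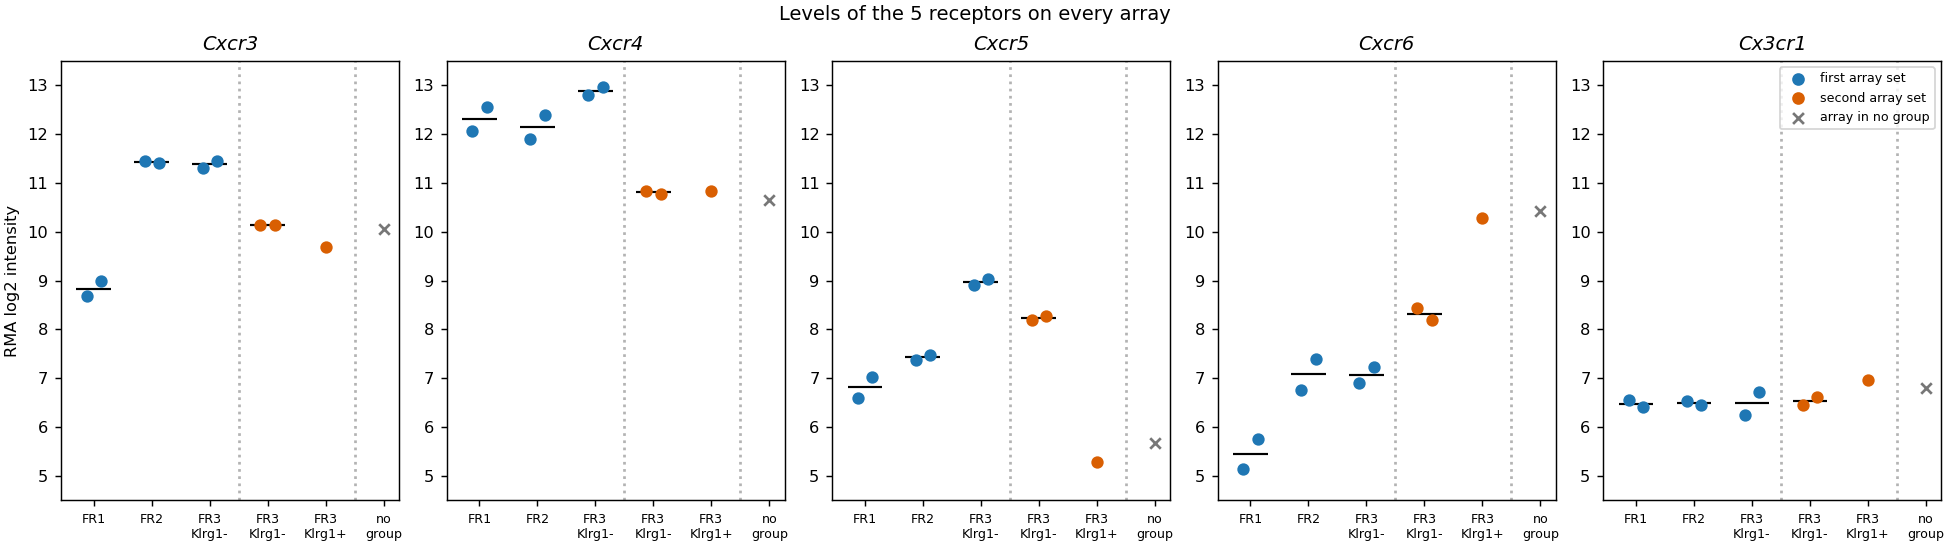
RMA log2 intensity (vertical axis) of each receptor on every array, by group (horizontal axis), with a point for each array and a black bar for the mean of 2 arrays. The arrays of the first set are blue, those of the second orange, and the array in no group a grey cross. Cxcr3 and Cxcr6 step up from FR1 to FR2, Cxcr5 steps up again in FR3 Klrg1-, and in FR3 Klrg1+ Cxcr5 is at 5.28 and Cxcr6 at 10.29.

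The comparison of FR2 with FR1 asks how CD62Llo Tregs differ from CD62Lhi Tregs when both lack CD69 and Klrg1. Of the 5 receptors 3 were called higher and 0 lower, while 1.96% of all genes were called higher and 2.3% lower; at an unadjusted p under 0.05 limma also had 3 higher and 0 lower. Cxcr3 rose by 2.59 ± 0.14 (SE, n = 2 and 2; adjusted p = 2.29e-07), which is 6.03-fold and the largest absolute log2 change of any gene in this fit. Cxcr6 rose by 1.64 ± 0.22 (adjusted p = 0.000371). Cxcr5 rose by 0.61 ± 0.15 (adjusted p = 0.0287). Cxcr4 changed by -0.16 with a 95% interval of -0.54 to 0.22, and Cx3cr1 by 0.01 with an interval of -0.32 to 0.34, neither of them called.

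The calls in this comparison depended on the array set term, which leaves the fold changes as they are and takes the difference between the sets out of the residual spread. Without it the SE of Cxcr3 was 0.46 and its adjusted p 0.126 (range over 15 alternatives 5.11e-10 to 0.126). For Cxcr6 the adjusted p without it was 0.631 (range 4.47e-05 to 0.631), and for Cxcr5 it was 1 (range 0.0101 to 1). Cxcr5 also lost its call without FR1 replicate 1 (0.41, adjusted p = 0.228) and without FR2 replicate 1 or 2 (0.149 and 0.154).

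Promoter windows show how the receptors that moved at the CD62L gate compare with Cxcr4, which was not called there. They are RefSeq windows of GRCm38.p6, from 250 bases before to 50 bases after the gene's start. The table held 4 of the 5 receptors, and Cxcr5 was not matched. The sequences run 5′ to 3′ in the direction of the gene, and capitals mark matches to any of 6 motifs searched on both strands: the T-box core GGTGTG, the Runx core TGTGGT, the STAT motif TTCNNNGAA, the AP-1 motif TGANTCA, the KLF motif CCNCNCCC and the TATA box TATAAA. The windows are chrX:101734098-101734397 (minus strand) for Cxcr3, chr9:123806227-123806526 (plus strand) for Cxcr6 and chr1:128592250-128592549 (minus strand) for Cxcr4.
Cxcr3: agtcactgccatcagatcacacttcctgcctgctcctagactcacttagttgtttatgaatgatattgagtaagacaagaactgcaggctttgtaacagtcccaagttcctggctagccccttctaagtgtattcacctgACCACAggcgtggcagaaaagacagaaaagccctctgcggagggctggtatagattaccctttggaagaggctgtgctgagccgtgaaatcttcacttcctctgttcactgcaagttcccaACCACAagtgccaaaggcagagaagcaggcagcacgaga
Cxcr6: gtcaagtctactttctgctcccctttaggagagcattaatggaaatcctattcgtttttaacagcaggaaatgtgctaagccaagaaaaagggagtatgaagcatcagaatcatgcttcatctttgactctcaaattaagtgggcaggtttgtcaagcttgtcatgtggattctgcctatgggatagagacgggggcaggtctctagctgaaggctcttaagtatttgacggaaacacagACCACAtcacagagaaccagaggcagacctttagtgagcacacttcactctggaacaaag
Cxcr4: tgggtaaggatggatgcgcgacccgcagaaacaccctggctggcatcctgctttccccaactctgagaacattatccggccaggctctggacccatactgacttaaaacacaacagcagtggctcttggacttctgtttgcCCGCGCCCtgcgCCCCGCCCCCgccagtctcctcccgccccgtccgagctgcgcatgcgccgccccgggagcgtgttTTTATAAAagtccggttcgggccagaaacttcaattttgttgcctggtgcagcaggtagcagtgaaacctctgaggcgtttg

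All capitals in the windows of Cxcr3 and Cxcr6 mark the Runx core, read on the strand opposite to the gene. Cxcr3 held 2 matches, from -110 to -105 and from 12 to 17 counted from the start. Cxcr6 held 1, from -10 to -5. The window of Cx3cr1 (chr9:120068247-120068546, minus strand), a gene that was not called in any comparison of gates, also held 1. This core occurred in 16.7% of the 32544 distinct windows of all genes. The capitals of Cxcr4 mark 3 KLF matches, from -109 to -102, -97 to -90 and -95 to -88, and a TATA box from -30 to -25, whose neighbouring letters also match on the opposite strand. KLF matches occurred in 49.7% of all windows and TATA boxes in 13.6%. The T-box core (19.0% of all windows), the STAT motif (8.33%) and the AP-1 motif (7.79%) were not matched in the 4 windows. The Cxcr4 window held 20 CpG dinucleotides, against 4 in Cxcr3, 3 in Cxcr6, 5 in Cx3cr1 and a median of 7 over all windows.

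The comparison of FR3 Klrg1- with FR2 isolates the CD69 gate among CD62Llo Klrg1- cells. Of the 5 receptors 2 were called higher and 0 lower, with 2.81% of all genes called higher and 1.94% lower; at an unadjusted p under 0.05 limma also had 2 higher and 0 lower. Cxcr5 rose by 1.54 ± 0.15 (SE; n = 2 and 2 in the first set), or 2.91-fold (adjusted p = 2.13e-05). Cxcr4 rose by 0.72 ± 0.18, or 1.65-fold (adjusted p = 0.0308). The genes that had moved most at the CD62L gate stayed near 0 here: Cxcr3 was at -0.05 (95% interval -0.34 to 0.24) and Cxcr6 at -0.02 (-0.49 to 0.45). Cx3cr1 was at 0.00 (-0.33 to 0.33).

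The call of Cxcr4 was fragile. It was lost without FR2 replicate 1 (0.47, adjusted p = 0.41), without FR3 Klrg1- replicate 1 (0.81, 0.108) or replicate 2 (0.64, 0.227), and after quantile normalization (0.58, 0.0836). Without the array set term the direction of Cxcr4 turned to -0.31 (adjusted p = 0.868, range over 15 alternatives 0.00509 to 0.868), since the FR3 Klrg1- arrays of the second set, in which Cxcr4 stood lower, then entered its mean. Cxcr5 had an adjusted p of 0.15 without that term (range 2.29e-06 to 0.15).

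Set against FR1, FR3 Klrg1- cells differ at both the CD62L and the CD69 gate. Of the 5 receptors 3 were called higher and 0 lower, with 4.39% of all genes called higher and 3.79% lower; at an unadjusted p under 0.05 limma had 4 higher and 0 lower. Cxcr3 rose by 2.54 ± 0.14, or 5.83-fold (adjusted p = 2.45e-08). Cxcr5 rose by 2.16 ± 0.15 (adjusted p = 2.16e-07). Cxcr6 rose by 1.62 ± 0.22 (adjusted p = 0.000152). Cxcr4 was at 0.56 ± 0.18 and missed the threshold (adjusted p = 0.0732). It passed under 4 alternatives, with adjusted p from 0.0185 to 0.742 over all 15, and without the array set term it stood at -0.47. Cx3cr1 was at 0.01 (95% interval -0.32 to 0.34).

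Without the array set term, Cxcr3 (1.92, adjusted p = 0.0577, range over 15 alternatives 8.76e-11 to 0.0577) and Cxcr6 (2.24, 0.0523, range 1.7e-05 to 0.0523) fell just short in this comparison, and Cxcr5 passed (1.79, 0.0146, range 1.31e-08 to 0.0146). FR1, FR2 and FR3 Klrg1- enter these 3 comparisons in pairs and share their arrays. Side by side, the orders within the first set were FR1, then FR3 Klrg1- and FR2 together, for Cxcr3 and Cxcr6, and FR1, FR2, FR3 Klrg1- for Cxcr5. For Cxcr4 FR2 and FR1 did not differ beyond their spread, and FR3 Klrg1- stood above them.

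The comparison of FR3 Klrg1+ with FR3 Klrg1- asks what differs at the Klrg1 gate among CD62Llo CD69+ cells. It rests on 1 array against 2 in the second set, with the lone array assumed to vary like the other groups. Of the 5 receptors 1 was called higher and 1 lower, with 2.14% of all genes called higher and 2.82% lower. Cxcr5 fell by 2.95 ± 0.18 on the log2 scale (SE; adjusted p = 6.31e-07). Its value in FR3 Klrg1+, 5.28, lies within the range of the lists of other cell types, and a level above background was not shown for it there. Cxcr6 rose by 1.97 ± 0.27, or 3.93-fold (adjusted p = 8e-04). Cxcr3 was at -0.45 ± 0.17 (95% interval -0.81 to -0.09) and Cx3cr1 at 0.44 ± 0.19 (0.04 to 0.85). Both intervals leave out 0, but neither gene was called after adjustment over all genes. Cxcr4 was at 0.02 (95% interval -0.45 to 0.49).

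Cxcr5 stayed between -3.32 and -2.91 over the 15 alternatives of this comparison, with -3.32 without the array set term. None of them left out the lone FR3 Klrg1+ array, so they could not test the dependence on it. The lowest adjusted p of Cxcr5, 4.19e-33, came from the second set alone, which leaves 1 residual degree of freedom. Cxcr6 lost its call without the array set term (2.60, adjusted p = 0.2, range 1.76e-14 to 0.2). Over the 4 comparisons of gates, 8 of the 10 calls on receptors were lost or turned without that term.

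**Figure D2:**
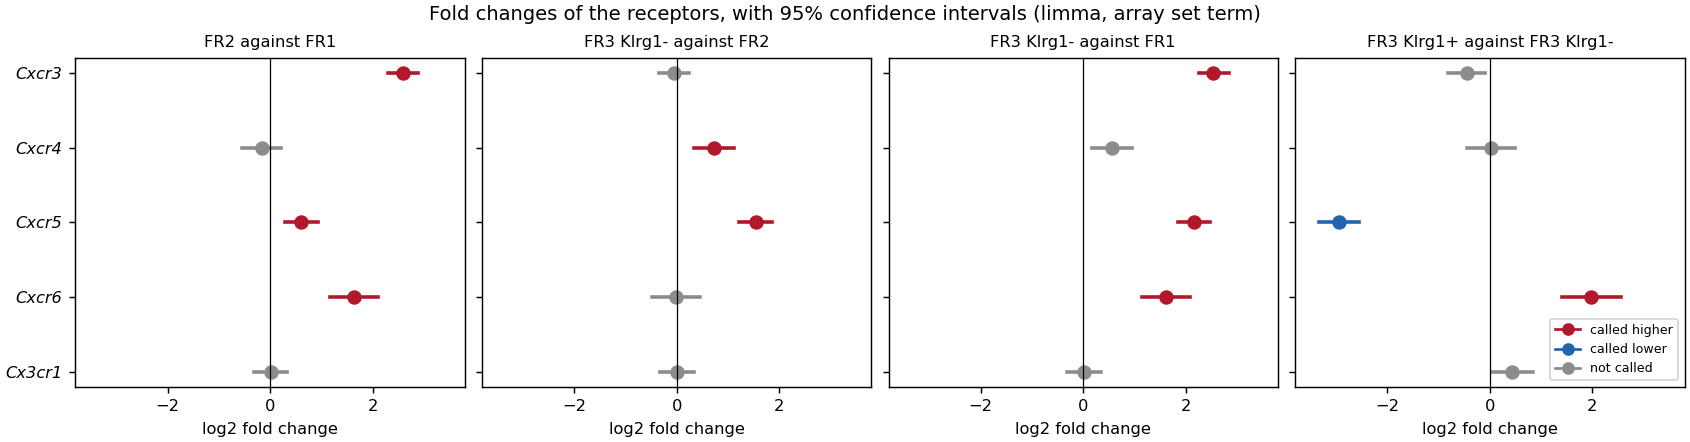
Log2 fold change (horizontal axis) of each receptor in the 4 comparisons, as a point with its 95% confidence interval, from limma with the array set term. Red marks genes called higher, blue called lower and grey not called. Cxcr3 stands at 2.59 in FR2 against FR1 and near 0 in FR3 Klrg1- against FR2, and in FR3 Klrg1+ against FR3 Klrg1- Cxcr5 and Cxcr6 lie on opposite sides of 0.

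The receptors also differed between the array sets within FR3 Klrg1-, where the labels give the same gates. Of the 5, 3 were called higher and 1 lower in the first set, with 19.3% of all genes called higher and 18.9% lower. Cxcr4 was higher in the first set by 2.07 ± 0.18 (SE, n = 2 and 2; adjusted p = 3.83e-07), Cxcr3 by 1.24 ± 0.14 (4.15e-06) and Cxcr5 by 0.73 ± 0.15 (0.00109). Cxcr6 was lower there by 1.25 on the log2 scale (-1.25 ± 0.22, 0.0003). Cx3cr1 was at -0.04 ± 0.15. Levels of these receptors in FR1 or FR2 can therefore not be set against those in FR3 Klrg1+ directly.

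Among the ligands of the receptors, Cxcl10 was the 1 gene of 8 called in the steps between FR1, FR2 and FR3 Klrg1-. This ligand of CXCR3 rose by 1.67 ± 0.20 in FR2 against FR1, by 1.24 ± 0.20 in FR3 Klrg1- against FR2, and by 2.91 ± 0.20 in FR3 Klrg1- against FR1 (adjusted p from 1.99e-07 to 0.00172). No ligand was called in FR3 Klrg1+ against FR3 Klrg1- by limma, where 1 was higher and 0 lower at an unadjusted p under 0.05. The medians of the 8 ligands lay between 0.03 and 0.17 in the 4 comparisons, beside 0.00 to 0.02 for all genes. Of all genes, 1.96% were called higher and 2.3% lower in FR2 against FR1. These shares were 2.81% and 1.94% in FR3 Klrg1- against FR2, and 4.39% and 3.79% in FR3 Klrg1- against FR1. The shares at the Klrg1 gate are given with that comparison above. The same shares stand beside the counts of the lists that follow.

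Of 9 other CXC, CX3C, XC and atypical receptors, Ccrl2, a receptor that binds the attractant chemerin without signalling, was the 1 gene called. It rose in all 4 comparisons, by 1.21 ± 0.16 in FR2 against FR1, 0.79 ± 0.16 in FR3 Klrg1- against FR2, 2.00 ± 0.16 in FR3 Klrg1- against FR1 and 0.87 ± 0.20 in FR3 Klrg1+ against FR3 Klrg1- (adjusted p from 1.1e-06 to 0.0221).

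The 22 genes of signal transduction below the receptors had medians from -0.03 to 0.10, with members called in both directions in 3 of the 4 comparisons. Between FR3 Klrg1- and FR1, 4 of 22 were higher in FR3 Klrg1- and 1 lower, where 4.39% of all genes were higher and 3.79% lower. The G protein subunit Gnaq rose by 1.98 ± 0.16, and the Rac activator Tiam1 by 1.12 ± 0.13, while Pik3r5, a regulatory subunit of PI3-kinase gamma, fell by 1.19 on the log2 scale (-1.19 ± 0.13). At the CD69 gate 2 were higher and 2 lower in FR3 Klrg1- against FR2 (2.81% and 1.94% of all genes), among them Dock2, a Rac activator of lymphocyte migration, at -0.63 ± 0.12. In FR2 against FR1 Gnaq alone was called (1.01 ± 0.16). At the Klrg1 gate, Rap1b rose by 0.58 ± 0.16 and Tiam1 was lower at -0.62 ± 0.15.

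Of 12 measured genes that switch receptors off, Rgs16, a GTPase activator for G protein alpha subunits, rose by 1.44 ± 0.14 in FR3 Klrg1- against FR2 and by 1.44 ± 0.14 against FR1. The receptor kinase Grk6 was lower in the same comparisons, at -0.55 ± 0.13 and -0.83 ± 0.13. This list had 2 genes higher and 3 lower in FR3 Klrg1- against FR1 (median 0.02), where 4.39% of all genes were higher and 3.79% lower. In FR2 against FR1 1 was higher, Rgs1 (0.55 ± 0.13), and in FR3 Klrg1+ against FR3 Klrg1- 1 was higher, Rgs2 (0.65 ± 0.17).

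Genes of the T-bet and Th1 axis are given beside Cxcr3. In FR2 against FR1, 7 of the 14 measured were higher and 1 lower (median 0.41, against 0.02 for all genes). The shares of all genes called higher and lower were 1.96% and 2.3% there, and 4.39% and 3.79% in FR3 Klrg1- against FR1. Tbx21, which encodes T-bet, rose by 1.09 ± 0.14, the IL-18 receptor chain Il18r1 by 1.73 ± 0.14, the chemokine Ccl5 by 1.80 ± 0.14 and Runx3 by 0.85 ± 0.17, while the interferon-gamma receptor chain Ifngr2 was lower (-1.16 ± 0.14). At the CD69 gate, in FR3 Klrg1- against FR2, 1 was higher and 3 lower (median -0.04), beside 2.81% and 1.94% of all genes. Il18r1 (-1.70 ± 0.14) and Runx3 (-0.81 ± 0.17), both higher in FR2 against FR1, were lower here, while Cxcr3 was at -0.05. Across both gates, in FR3 Klrg1- against FR1, 5 were higher and 2 lower, and in FR3 Klrg1+ against FR3 Klrg1- 3 were higher and 1 lower, with Il18rap at 1.40 ± 0.21 and Ifng at -0.78 ± 0.18.

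Genes of the follicular programme are given beside Cxcr5. Of 17 measured, 11 were higher and 0 lower in FR3 Klrg1- against FR1, where 4.39% of all genes were higher and 3.79% lower. The 11 include Prdm1. The median of the list was 0.94, against 0.02 for all genes. At an unadjusted p under 0.05 limma had 15 higher and 1 lower. The receptor Pdcd1 (PD-1) rose by 2.68 ± 0.13, the transcription factors Maf by 1.81 ± 0.14 and Bcl6 by 1.02 ± 0.17, and Prdm1, which encodes Blimp-1 and opposes Bcl6, rose by 1.68 ± 0.21. Against FR2, 5 were higher in FR3 Klrg1-, with Bcl6 at 1.39 ± 0.17, where 2.81% of all genes were higher. In FR2 against FR1 6 were higher and 0 lower, beside 1.96% and 2.3% of all genes. Among the 6 were Maf (1.72), Icos (1.48) and Prdm1 (1.41), while Bcl6 was at -0.37 ± 0.17 and not called. At the Klrg1 gate, where Cxcr5 fell, 2 were higher and 2 lower (median 0.05): Prdm1 rose by 1.27 ± 0.26 and Pdcd1 by 1.03 ± 0.16, while Bcl6 (-0.78 ± 0.21) and the oxysterol receptor Gpr183 (-0.82 ± 0.17) were lower.

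B cells carry Cxcr5 too. Of 9 measured B cell markers 0 were called in FR2 against FR1, in FR3 Klrg1- against FR2 and in FR3 Klrg1+ against FR3 Klrg1- by limma, and at an unadjusted p under 0.05 they had 2, 3 and 0. Between FR3 Klrg1- and FR1 Cd22 was higher (0.94) and Cd79a lower (-0.68). Their mean lay between 5.36 and 5.51 on the arrays of the first set and between 5.52 and 5.55 on the grouped arrays of the second, and Ms4a1 (CD20) was lowest at 4.32 and highest at 5 on the grouped arrays. Their part in the Cxcr5 values was not tested.

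Monocytes and NK cells carry Cx3cr1. Of 9 macrophage and monocyte markers, Ccr2, itself a receptor for Ccl2 that T cells also express, was called in FR2 against FR1 (2.58) and in FR3 Klrg1- against FR2 (-2.35), Fcgr1 was higher in FR3 Klrg1+ against FR3 Klrg1- (0.68), and no other marker of that list was called. Of 6 NK cell markers, Klrb1c was called in FR3 Klrg1- against FR2 (1.09), in FR3 Klrg1- against FR1 (1.15) and, lower, in FR3 Klrg1+ against FR3 Klrg1- (-0.66). Neutrophil markers had 0 of 6 called in the 4 comparisons by limma, with 1 at an unadjusted p under 0.05. Of 6 dendritic cell markers Flt3 was higher in FR3 Klrg1+ against FR3 Klrg1- (0.91, adjusted p = 0.00374), and of 2 CD8 T cell markers Cd8b1 was lower in FR3 Klrg1- against FR1 (-0.55, adjusted p = 0.0154), with no other call in these lists. The part of these cell types in the receptor values was not tested.

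Several genes listed for lymphoid homing and exit were lower where Cxcr3 or Cxcr5 rose in the first set. Not all of them were lower at each gate. The list also holds transcription factors such as Satb1. Of 10 measured, 5 were lower in FR2 against FR1 (median -0.44), 7 in FR3 Klrg1- against FR2 (median -0.77) and 8 in FR3 Klrg1- against FR1 (median -1.28), with 0 higher in each by limma and 1, 1 and 0 higher at an unadjusted p under 0.05. Of all genes, 2.3%, 1.94% and 3.79% were called lower in these comparisons, and 1.96%, 2.81% and 4.39% higher. S1pr1, through which T cells leave lymphoid tissue, was at -2.37 ± 0.12 in FR3 Klrg1- against FR1, and Klf2, its activator, at -1.94 ± 0.15. In FR2 against FR1, where Cxcr3 rose, S1pr1 was at -0.19 ± 0.12 and not called. Ccr7, which leads cells to T cell zones, was lower in FR2 against FR1 (-1.61 ± 0.13). In FR3 Klrg1- against FR2 Ccr7 was at 0.35 ± 0.13 and not called. Between FR3 Klrg1+ and FR3 Klrg1- 2 were higher and 1 lower, and the lower gene was Ccr7, at -2.42 ± 0.16, beside Cxcr5 at -2.95.

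**Figure D3:**
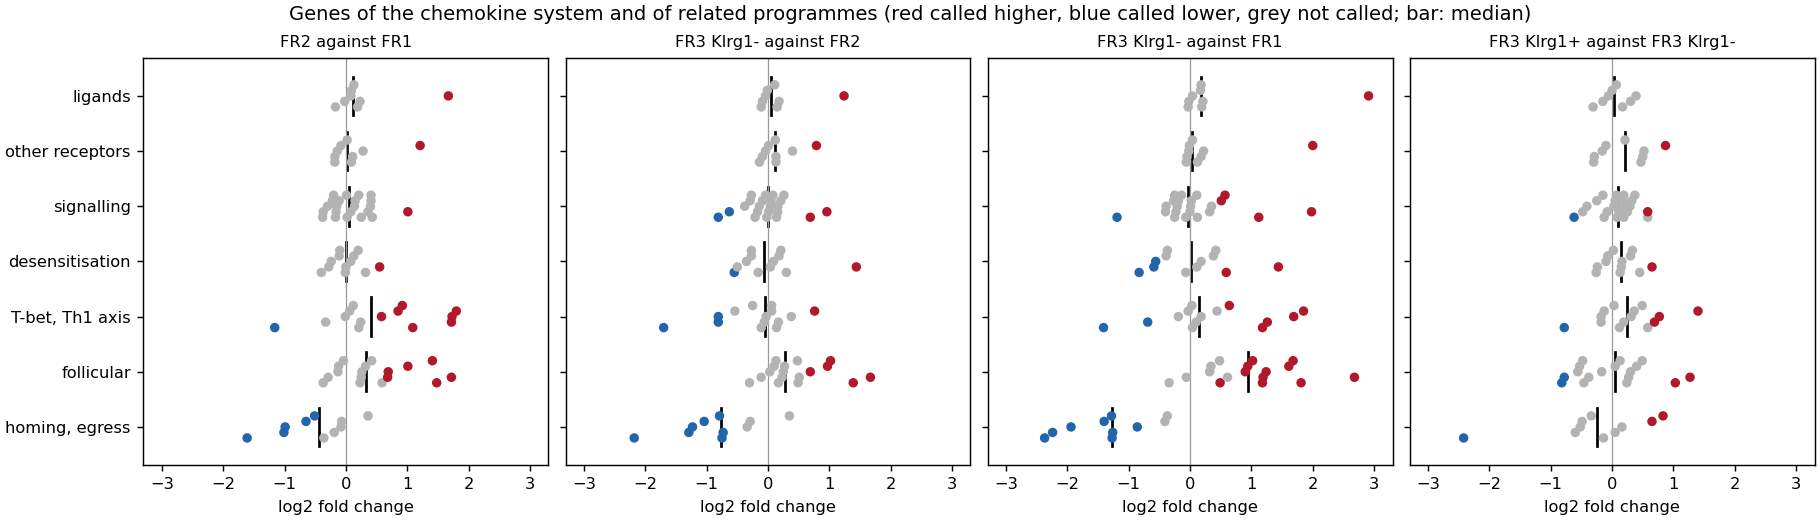
Log2 fold change (horizontal axis) of each measured gene in 7 lists (vertical axis) for the 4 comparisons, with red for genes called higher, blue for called lower, grey for not called and a black bar at the median of the list. The median of the follicular programme is 0.94 in FR3 Klrg1- against FR1 and that of homing and exit -1.28, while the ligands and other receptors centre near 0.

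The genes whose pattern was most like that of each receptor were found by Pearson r over the 9 grouped arrays, after the mean of each array set was subtracted. Candidates were 1057 genes (1058 for Cx3cr1) whose values then spanned at least 1. With 9 arrays of few groups, high r values are easily reached, and they are given as a description. Fold changes of these genes in the direction of the receptor follow from their choice by r on the same arrays. For Cxcr3 these were the histone methyltransferase Nsd2 (r = 0.991), the sodium-proton exchanger Slc9a7 (0.985) and the palmitoyltransferase Zdhhc2 (0.985). Zdhhc2 spanned 2.64 against 2.78 for Cxcr3 and stood at 2.11 in FR2 against FR1, where Nsd2 stood at 1.06. In FR3 Klrg1+ against FR3 Klrg1- Zdhhc2 was at 0.01 beside -0.45 for Cxcr3.

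For Cxcr6 the nearest were Cldnd1 (r = 0.983), the aryl hydrocarbon receptor Ahr (0.978) and Ubxn2a (0.973). Like Cxcr6, Ahr stood at 1.11 in FR2 against FR1, at -0.16 in FR3 Klrg1- against FR2 and at 1.13 in FR3 Klrg1+ against FR3 Klrg1-. For Cxcr5 they were the immunoglobulin family receptor Cd160 (r = 0.975), the cyclic AMP phosphodiesterase Pde7a (0.969) and the small GTPase Arl3 (0.963). Cd160 stood at 0.66 in FR3 Klrg1- against FR2 and at -1.06 in FR3 Klrg1+ against FR3 Klrg1-, a smaller range than that of Cxcr5.

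For Cxcr4 the nearest were Smyd5 (r = 0.933), Cd200, a ligand of an inhibitory receptor (0.932), and the prion protein gene Prnp (0.930). At the CD69 gate they stood at 1.10, 1.02 and 1.19 against 0.72 for Cxcr4, a shared direction that their choice by r made likely. For Cx3cr1, which spanned 0.52 after centring, the nearest were Zfp975 (r = 0.899), Amy1 (0.885) and Siah1b (0.845), and such a pattern is of the size of the spread between its replicates.

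Among the receptors themselves, Cxcr3 and Cxcr6 correlated at 0.96 over the 6 arrays of the first set and at 0.66 over all 9, where the Klrg1+ array enters. Cxcr5 and Cxcr6 correlated at 0.71 in the first set and at -0.09 over all 9. These points share arrays and groups, and no p is given.

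**Figure D4:**
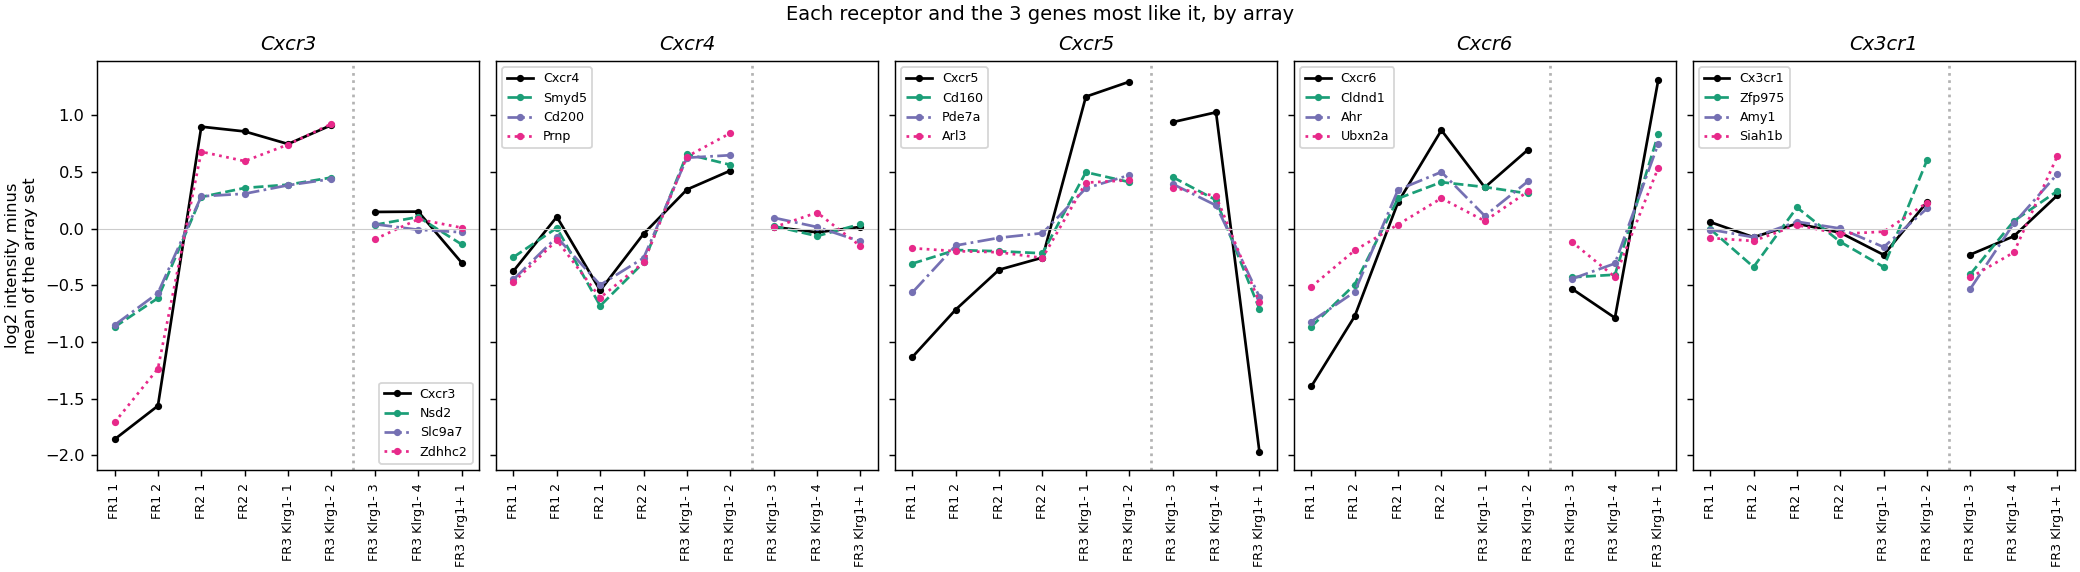
Log2 intensity minus the mean of the array set (vertical axis) for each receptor (black) and the 3 genes with the highest Pearson r with it (coloured), on the 9 grouped arrays (horizontal axis; the number after the group is the replicate), with a dotted line between the sets. The line of Zdhhc2 follows Cxcr3 across the first set, at a slightly smaller span over all arrays (2.64 against 2.78), and those of Cd160, Pde7a and Arl3 follow Cxcr5 with a smaller range.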

How the data were processed

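Total RNA (20 to 50 ng) was amplified, labelled with biotin and read on Mouse Gene ST 1.0 arrays of Affymetrix, per the labels. The deposited values are log2 intensities; the submitters' processing notes name RMA, with no version given in the sources used here, and whether all arrays were normalized together is also not given. Their number limits the precision. Of 35556 probe sets, 21789 had 1 gene symbol, 1621 several and 12146 none; the brightest per gene was kept (19938 genes), with no intensity filter. Comparisons used limma 3.58.1 in R 4.3.3, with group and array set as terms, 4 residual degrees of freedom and Benjamini-Hochberg adjustment over all genes. The fit was also run on data simulated from the fitted model itself. That run could not check the assumptions of the model, such as the lone FR3 Klrg1+ array varying like the others. The members, gene lists, array sets and tests were chosen with earlier results of these data known. Named genes were the 5 receptors, the 3 most like each (leaving out predicted, receptor segment and small RNA genes), the genes of the sort gates, and of each list up to 4 called genes with the largest change. Tbx21 and Runx3 in FR2 against FR1, Bcl6 outside FR3 Klrg1- against FR2 and FR3 Klrg1+ against FR3 Klrg1- and Ms4a1 were singled out after their values were seen. So were S1pr1 in FR2 against FR1 and Ccr7 in FR3 Klrg1- against FR2. Alternatives were: no array set term, the shared set alone, each array left out, a replicate block, an intensity trend, a filter on dim genes (percentile 40), quantile normalization, every probe set, and a log2 fold change of at least 1. The FR3 Klrg1+ array, the only one of its group, was never the array left out.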

Additional observations from a re-analysis of the deposited data

How the results depend on the processing

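Of 370 recomputed values for 25 receptor results, 329 kept their direction and their side of the threshold. For many of the 370 the fold change was fixed in advance, since the alternative changed only the spread or left out an array outside the comparison. The count of 329 is therefore no measure of robustness. A further 22 took the opposite sign without a call in either fit (-1.01 to 0.61). Among them were Cxcr4 in FR3 Klrg1+ against FR3 Klrg1- (-1.01) and in FR3 Klrg1- against FR1 (-0.47), both without the array set term. Cxcr6 in FR3 Klrg1- against FR2 (0.61) was also among them. Of the rest 14 lost a call, 4 gained one and 1 reversed (Cxcr4 in FR3 Klrg1- against FR2, -0.31 without the array set term). Without that term the receptors called were 0 in FR2 against FR1, 0 in FR3 Klrg1- against FR2, 1 in FR3 Klrg1- against FR1 and 1 in FR3 Klrg1+ against FR3 Klrg1-, instead of 3, 2, 3 and 2. In FR3 Klrg1- against FR2, quantile normalization gave 1, a log2 fold change of at least 1 gave 1, and leaving out each array in turn gave 1 to 2.

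Genes called in FR2 against FR1 numbered 850, and 52 without the term, 1331 in the first set alone, 1401 without dim genes, 158 with a log2 fold change of at least 1, and 253 to 1331 leaving out each array. In FR3 Klrg1- against FR2 they numbered 948, and 55 without the term, 145 with the fold threshold and 302 to 1318 leaving out each array. In FR3 Klrg1- against FR1 they numbered 1632, and 439, 429 and 910 to 2063 in the same order. In FR3 Klrg1+ against FR3 Klrg1- they numbered 989, and 22, 212 and 721 to 1553. Between the sets they numbered 7634, and 2063 with the fold threshold.

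The replicate numbers were not taken as pairs: deviations of same-numbered arrays of the first set correlated at 0.18, 0.14 and 0.02 over genes, although Cxcr4, Cxcr5 and Cxcr6 were higher in replicate 2 of each group. With the replicate block, 3, 2, 4 and 2 receptors were called in the 4 comparisons and 4 between the sets, Cxcr4 in FR3 Klrg1- against FR1 being gained (adjusted p = 0.0201 by limma). All genes called were then 750, 812, 1550 and 848. The fit of FR3 Klrg1- arrays alone was added after the data were seen.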

Other observations

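The array titled FR3 with the gate text of FR1 was in no comparison. It correlated at 0.973 to 0.975 with the grouped arrays of the second set and at 0.904 to 0.917 with those of the first. On it Cxcr3 stood at 10.05, Cxcr4 at 10.66, Cxcr5 at 5.66, Cxcr6 at 10.42 and Cx3cr1 at 6.79. Its Cxcr5 lay 2.58 below the mean of FR3 Klrg1- in the second set and its Cxcr6 2.11 above. Klrg1 was at 12.41 on this array, against 12.33 on the FR3 Klrg1+ array and 5.43 to 7.47 on the arrays of Klrg1- gates. Cd69 was at 9.86, as on the FR3 Klrg1+ array.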
